A study of Mus musculus with 6 samples.

Results

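Ribosome biogenesis factors and host genes of small nucleolar RNAs (snoRNAs) were examined in kidney epithelium of mice labelled as knockouts of Fh1, the gene of fumarate hydratase. The members were chosen by symbol from the array's annotation, and 75 of the 18193 genes tested qualified. Membership used no measured value, but the rule was chosen with earlier results of these data known. The rule took symbols that begin with Snhg, Polr1, Utp, Rrp, Nol or Nop followed by a digit, and added single genes such as Gas5, Ncl, Npm1, Fbl, Dkc1, Imp4 and Wdr75. Each gene was read from the brightest over the 6 arrays of its probe sets, 162 in all, on the log2 scale of the deposited values.

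The knockout group comprised 3 samples of cystic epithelium dissected from kidneys of Fh1 knockout mice, and the control group 3 samples of renal epithelium from disease-free, sex-matched wild-type littermates. Each sample was hybridised to 1 Affymetrix array. The sources used here do not give age, strain, the Cre driver or the allele's structure, nor is it stated whether a sample is 1 animal, so the tests compare the spread between arrays. The comparison asks how the expression of these genes differs in Fh1 knockout tissue, which is also cystic.

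Ribosomes are built in the nucleolus. RNA polymerase I transcribes a long ribosomal RNA precursor, which is cut, trimmed and modified while factors fold it into the small and the large subunit. Box C/D snoRNAs guide ribose methylation and box H/ACA snoRNAs guide pseudouridylation of that precursor, each inside a protein particle with a fixed set of core proteins. Most mammalian snoRNAs are not transcribed on their own but are released from introns of host genes. Some hosts, the Snhg genes and Gas5, have spliced transcripts with no known protein product, whereas others encode nucleolar or translation proteins. The probe sets read here were named for the host genes, and which transcripts each covers was not examined.

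Most of these genes were higher in the knockout. By limma with Benjamini-Hochberg adjustment over all genes, 44 of the 75 members rose and 5 fell at an adjusted p under 0.05, and 26 did not pass. Among all genes tested, 21.6% were called higher and 27.7% lower, beside 58.7% and 6.67% of the members. The members were bright, 67 of the 75 being at or above the median gene signal. Among the 9097 genes that bright, 32.4% were higher and 25.7% lower, beside 41 higher and 5 lower of those 67 members. The median log2 fold change was 0.34 for the members and -0.11 for all genes. With each array centred on the median of the genes tested, 41 members were called higher and 7 lower, and the split over all genes moved from 3928 higher and 5031 lower to 3380 and 6866. A rise of at least 2-fold was called in 11 members, against 5.44% of all genes, and a fall of that size in none of the 75 members, against 3.39% of all genes. All 3 knockout values lay above all 3 wild-type values in 47 members (25.7% of all genes) and below them in 8 (37.1% of all genes), so the groups did not overlap in either direction for 62.9% of all genes. In either direction 49.2% of all genes were called.

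All 3 box C/D core proteins and all 5 nucleolar scaffold and regulatory proteins rose, as did 13 of 15 snoRNA hosts, 3 of 4 box H/ACA core proteins and 8 of 13 large subunit factors. Of 25 small subunit factors, 8 rose (32%) and 4 fell (16%), and of 5 RNA polymerase I subunits 2 rose (40%). Among the brighter genes 32.4% were higher and 25.7% lower, so the share of small subunit factors that rose was close to theirs. Both factors of both subunits rose, and of 3 genes that share only the prefix 1 fell. Median log2 fold changes were 1.09 for the box C/D core, 1.06 for the scaffold group, 0.66 for the box H/ACA core and 0.63 for the hosts. They were 0.37 for factors of both subunits, 0.36 for the large subunit, 0.19 for polymerase subunits, 0.13 for the small subunit and -0.31 for the genes that share only the prefix. Differences between roles were not tested.

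**Figure D1:**
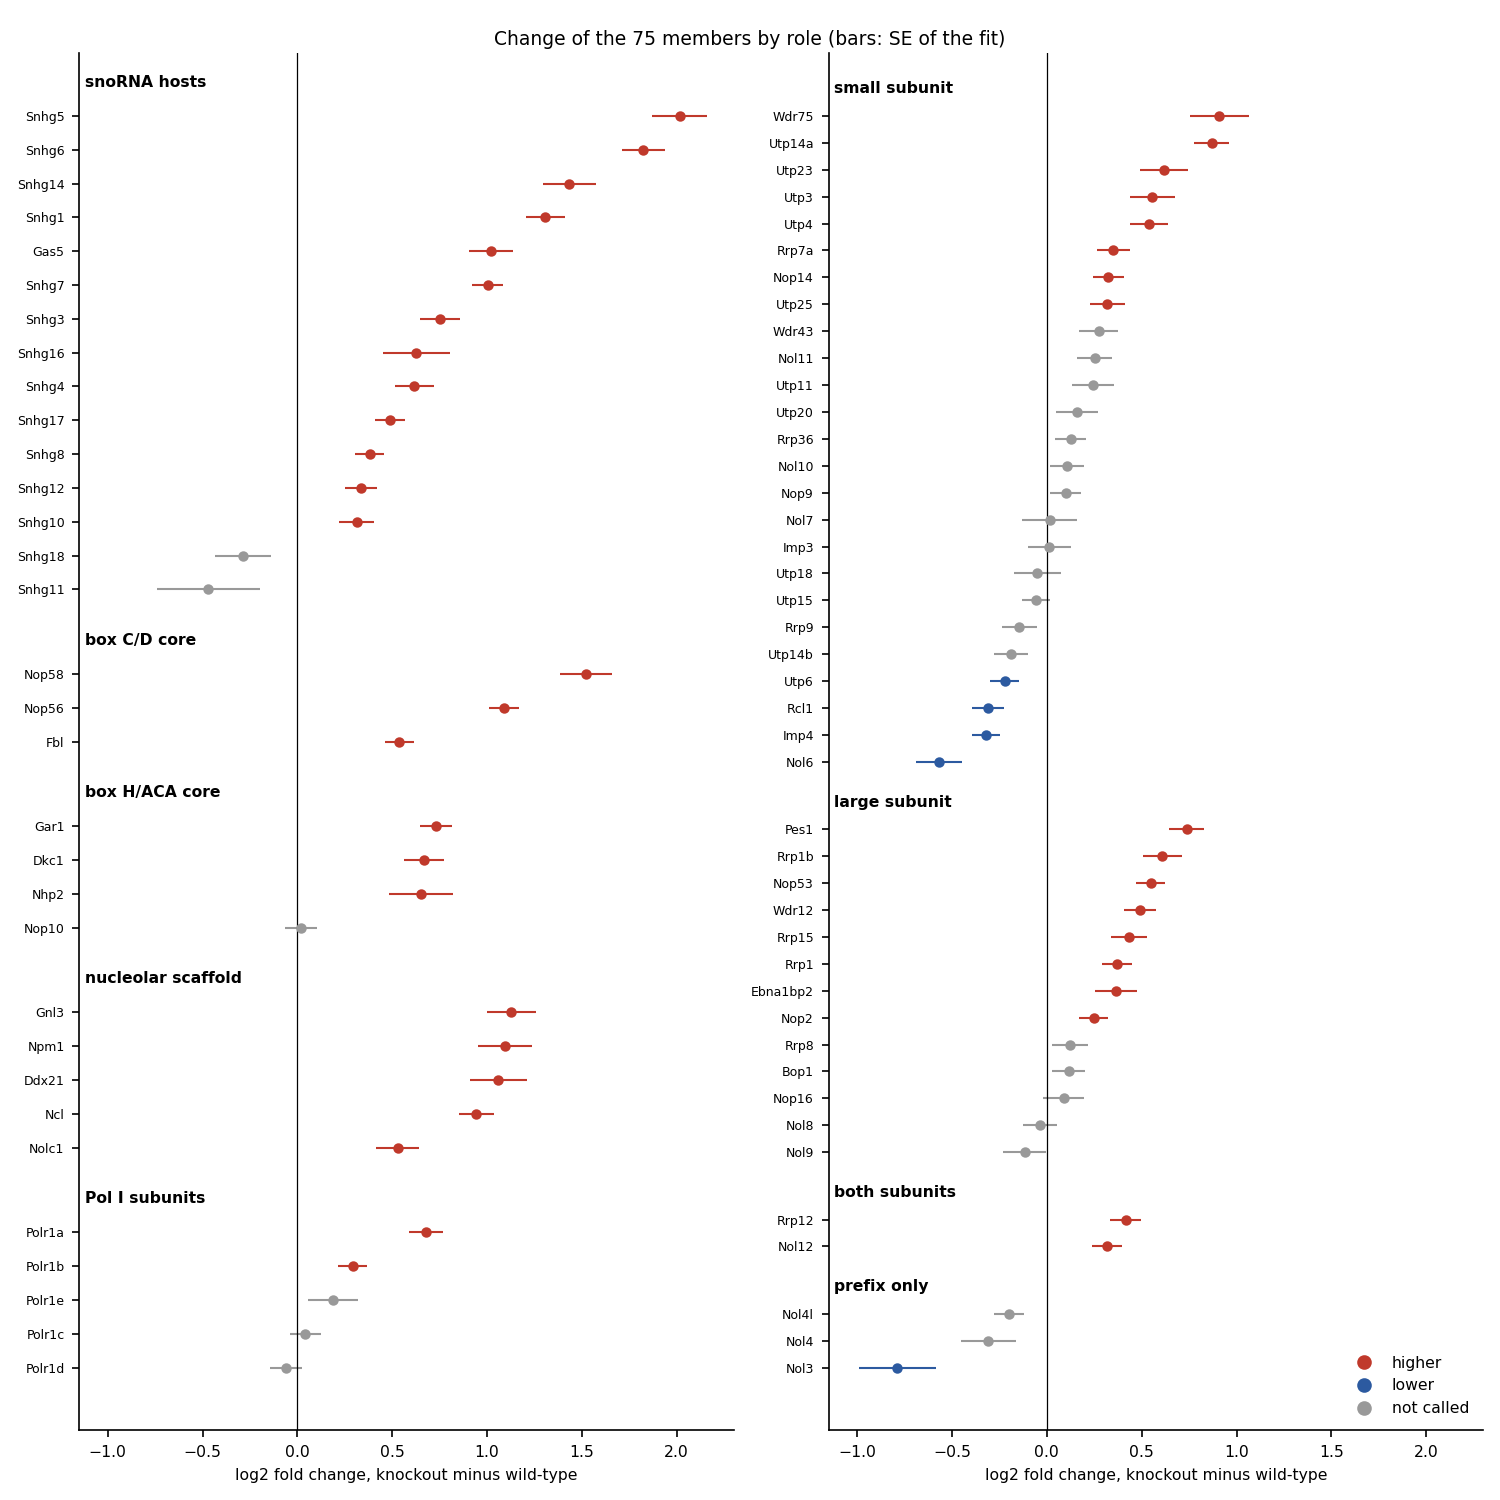
Log2 fold change (knockout minus wild-type) of each of the 75 members, grouped by role, with bars for the standard error of the limma fit; red points were called higher, blue lower and grey not called at an adjusted p under 0.05. Snhg5 at 2.01 and Snhg6 at 1.82 stand at the top of the hosts, and the 4 lower small subunit factors end at -0.57 for Nol6.

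**Figure D2:**
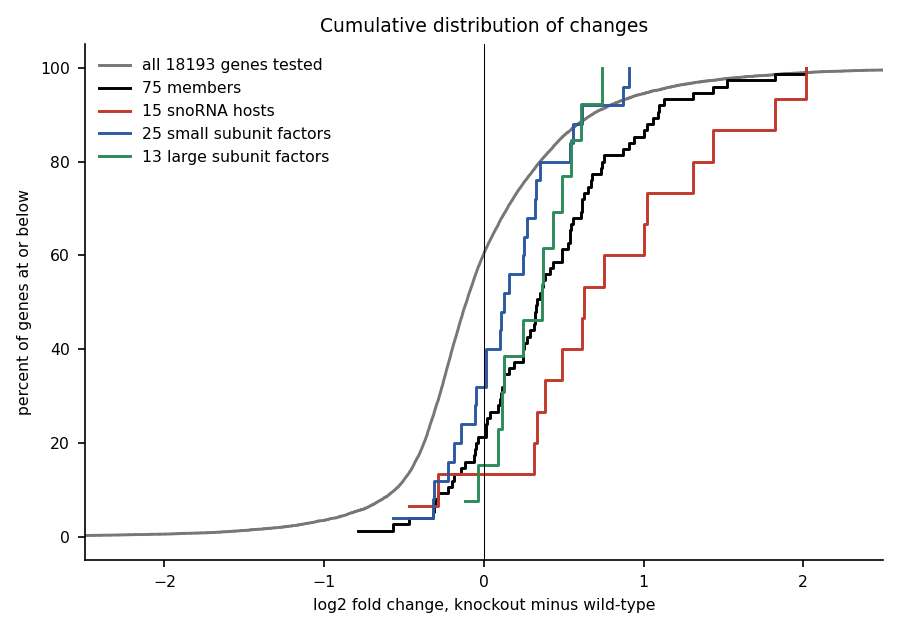
Percent of genes (vertical axis) at or below each log2 fold change (horizontal axis) for all genes tested, the 75 members, the 15 snoRNA hosts, the 25 small subunit factors and the 13 large subunit factors. The members' curve lies to the right of the curve of all genes over most of its length, with medians of 0.34 and -0.11.

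Promoter windows from RefSeq (GRCm38.p6), reaching from 250 bases before to 50 bases after an annotated start, were found for 62 of the 75 members by gene ID. Stretches around the starts of 6 snoRNA hosts are shown because all 6 rose and 5 of them carry one or both of the patterns searched, while Snhg5 had the largest change. Each runs from 45 bases before the start to 5 bases after it, 5′ to 3′. Capitals mark the letters TATA where they lay between 45 and 21 bases before the start, and a C followed by 4 pyrimidines at the start itself, the form of a terminal oligopyrimidine (TOP) start typical of transcripts of the translation machinery.
Snhg5 (chr9:88522893-88522942, minus strand): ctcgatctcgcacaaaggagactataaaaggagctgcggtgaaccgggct
Snhg1 (chr19:8723442-8723491, plus strand): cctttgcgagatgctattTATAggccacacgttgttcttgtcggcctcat
Gas5 (chr1:161035121-161035170, plus strand): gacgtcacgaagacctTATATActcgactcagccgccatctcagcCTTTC
Snhg7 (chr2:26640240-26640289, minus strand): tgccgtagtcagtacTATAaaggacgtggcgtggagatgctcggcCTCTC
Snhg12 (chr4:132308633-132308682, plus strand): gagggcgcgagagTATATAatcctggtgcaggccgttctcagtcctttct
Snhg8 (chr3:123508332-123508381, minus strand): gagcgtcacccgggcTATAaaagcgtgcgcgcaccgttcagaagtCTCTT

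TATA in that stretch was found in 5 of 13 snoRNA hosts with a window (Gas5, Snhg1, Snhg7, Snhg8 and Snhg12), in 0 of 49 other members and in 6.83% of all genes tested that had a window. The letters tata of Snhg5 end 20 bases before the start, 1 base past that stretch. With the stretch made 1 base longer, a search added after the data were seen, the counts were 6 of 13 hosts, 0 of 49 other members and 6.95% of all genes with a window. The start pattern was found in 3 of the 13 hosts (Gas5, Snhg7 and Snhg8), in 2 of the 49 other members and in 2.94% of all genes with a window. These are letters in a window around an annotated start, searched after the expression values were known, and no binding or start site was measured.

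For contrast, the same stretches of 4 protein-coding members that rose strongly and that also hold snoRNAs in their introns carry neither pattern.
Nop58 (chr1:59684961-59685010, plus strand): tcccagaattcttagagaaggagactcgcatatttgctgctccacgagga
Nop56 (chr2:130274367-130274416, plus strand): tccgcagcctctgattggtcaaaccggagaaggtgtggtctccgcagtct
Gnl3 (chr14:31019127-31019176, minus strand): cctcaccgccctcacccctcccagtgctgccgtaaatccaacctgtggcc
Ncl (chr1:86359451-86359500, minus strand): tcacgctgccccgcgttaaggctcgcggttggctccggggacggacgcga

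The palindrome CACGTG, the E-box to which Myc and Max bind, reads alike on both strands and was searched over the whole window. It was found in 9 of 21 small subunit factors with a window, 2 of 11 large subunit factors and 0 of 13 snoRNA hosts, against 10.3% of all genes with a window. Among members with a window it stood in 5 of 37 that were called higher and in 6 of 25 that were not. Examples are shown with the palindrome in capitals, from promoters of a member that rose (Nop2) and of a member that fell (Imp4).
Nop2 (chr6:125131808-125131843, plus strand): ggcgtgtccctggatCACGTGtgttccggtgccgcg
Imp4 (chr1:34439693-34439728, plus strand): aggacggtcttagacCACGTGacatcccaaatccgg

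The snoRNA hosts held the largest changes among the members. Snhg5 read 6.57, 6.89 and 6.51 in wild-type arrays 1 to 3 and 8.76, 8.84 and 8.42 in knockout arrays 1 to 3, on the log2 scale. The groups lay far apart, at 6.66 ± 0.21 (SD, n = 3) and 8.67 ± 0.23 (SD, n = 3), a 4.04-fold rise (log2 fold change 2.01, SE 0.15, adjusted p = 6.39e-05). Its dimmer probe sets went the other way, with log2 fold changes of -0.43 (called lower, adjusted p = 0.0219 over all probe sets) and -0.26 (not called), so the rise rests on the brightest probe set. Snhg6 read 8.87, 9.19 and 9.23 in wild-type and 10.87, 11.00 and 10.89 in knockout arrays, a 3.54-fold rise (SE 0.11, adjusted p = 3.57e-05). All knockout arrays of Snhg6 stood more than a full log2 unit above every wild-type array.

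Snhg1, whose introns hold a cluster of box C/D snoRNAs, read 8.93, 8.64 and 8.71 in wild-type and 10.13, 10.11 and 9.96 in knockout arrays. It rose 2.47-fold (log2 fold change 1.31, SE 0.10, adjusted p = 8.87e-05). Gas5, a host of box C/D snoRNAs first described as a growth arrest transcript, read 10.55, 10.68 and 10.87 in wild-type and 11.78, 11.83 and 11.56 in knockout arrays. Gas5 rose 2.03-fold (SE 0.11, adjusted p = 0.000392) without overlap of the groups. Its other 3 single-gene probe sets also rose, with log2 fold changes of 0.97, 0.93 and 1.51, and so did the 4 further probe sets of Snhg1, at 1.17 to 1.70.

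Snhg14, the long imprinted host of the Prader-Willi and Angelman region, read 6.65, 6.92 and 6.57 in wild-type and 8.39, 7.94 and 8.10 in knockout arrays. It rose 2.70-fold (SE 0.14, adjusted p = 0.000219). A second probe set rose as well (log2 fold change 1.10), and a dim further set read -0.10 and was not called. Snhg7 rose 2.00-fold, Snhg3 1.69-fold and Snhg4 1.53-fold, and Snhg17, Snhg8, Snhg12 and Snhg10 had log2 fold changes of 0.49, 0.38, 0.34 and 0.31. Snhg16 rose by 0.63 on the log2 scale, with wild-type values spread from 7.00 to 7.77.

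Only Snhg11 and Snhg18 of the 15 hosts did not pass. Snhg11, best known from neurons, read 8.29, 9.35 and 8.36 in wild-type and 8.37, 7.98 and 8.25 in knockout arrays. Wild-type 2 stood apart, the groups overlapped, and the log2 fold change was -0.47 (SE 0.27, adjusted p = 0.180). Its dimmer probe set was called lower (log2 fold change -0.68, adjusted p = 0.00493 over all probe sets), and so was the mean of both (-0.57, adjusted p = 0.0336). Snhg18 had a log2 fold change of -0.29 (adjusted p = 0.137), and without wild-type 1 it was called lower (-0.43, adjusted p = 0.0355).

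Some host calls were lost when 1 array was left out. Snhg16 lost its call without wild-type 1 or without any of the knockout arrays (log2 fold change 0.60 to 0.65, adjusted p = 0.0514 to 0.0668). Snhg10 lost it without wild-type 1, knockout 2 or knockout 3 (log2 fold change 0.24 to 0.34, adjusted p = 0.0557 to 0.0939), and Snhg12 without knockout 2 (0.32, adjusted p = 0.0561).

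Hosting a snoRNA was not limited to the Snhg genes. In the RefSeq gene table, 21 members had at least 1 annotated snoRNA gene inside their span, strand not considered. Among them were 14 of the 15 hosts by name, from 1 snoRNA gene each in Snhg4, Snhg6, Snhg8 and Snhg18 to 8 each in Gas5 and Snhg1 and 206 in Snhg14. The other 7 were Nop56 with 5, Nop58 with 4, Gnl3 and Wdr43 with 3, Ncl with 2, and Dkc1 and Nop53 with 1. Of these 7 genes 6 rose, with a median log2 fold change of 0.94. Of the 53 remaining members outside the host group 25 rose and 5 fell, with a median of 0.24. This split was made after the values were seen and was not tested.

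**Figure D3:**
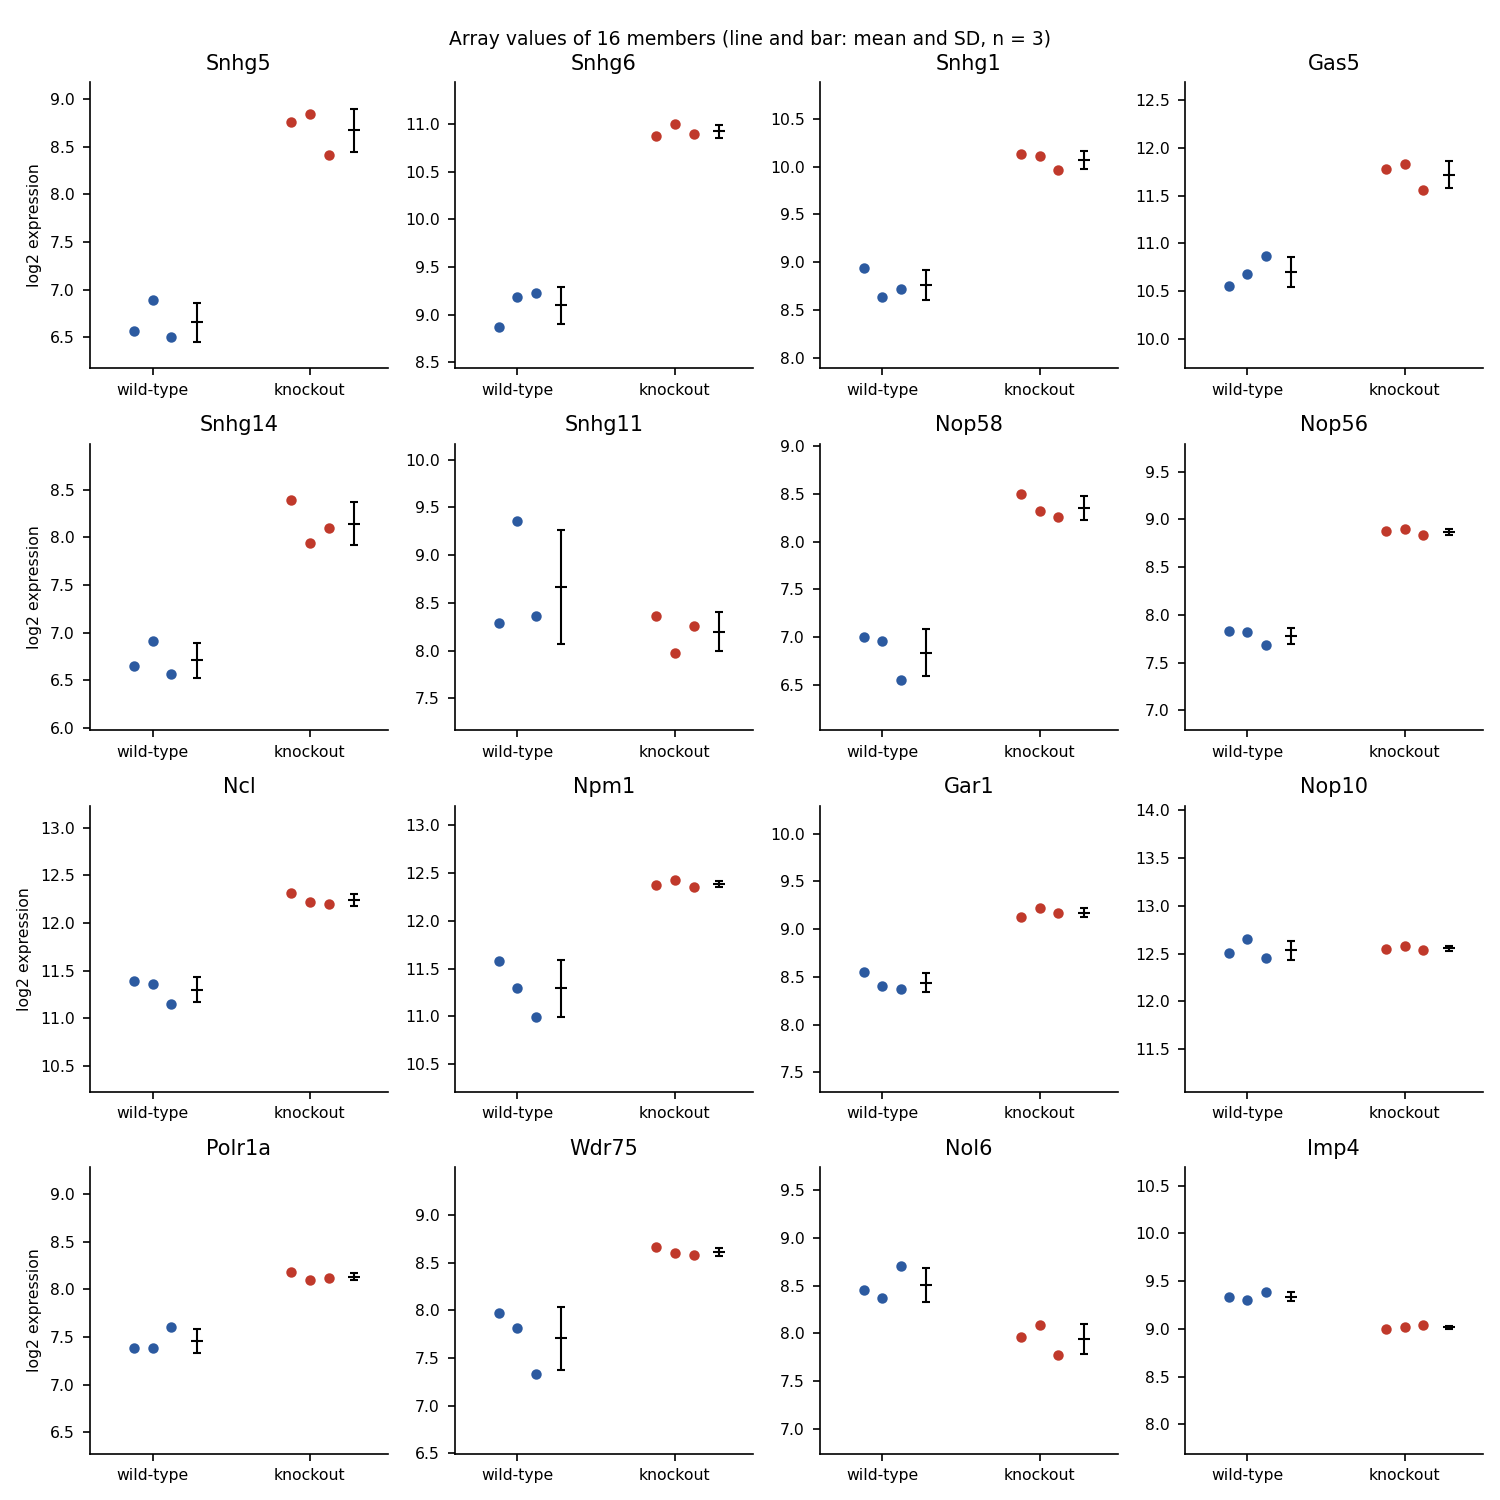
Log2 expression (vertical axis, 3 log2 units in every panel) of 16 members in the 3 wild-type arrays (blue) and 3 knockout arrays (red); the horizontal mark and bar beside each group are its mean and SD. The groups are separated in 14 panels and overlap for Snhg11 and Nop10.

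The core proteins of box C/D particles rose without exception. Nop58, which clamps the guide RNA together with Nop56, read 7.00, 6.96 and 6.55 in wild-type and 8.50, 8.32 and 8.26 in knockout arrays. It rose 2.87-fold (log2 fold change 1.52, SE 0.14, adjusted p = 0.000149), the largest change among the members that encode proteins. Nop56 read 7.84, 7.82 and 7.69 in wild-type and 8.88, 8.90 and 8.84 in knockout arrays, a 2.13-fold rise (SE 0.08, adjusted p = 6.77e-05). Fbl, fibrillarin, the methyltransferase of the particle, rose less, from 10.05, 10.01 and 9.98 to 10.61, 10.52 and 10.53. That was a 1.45-fold rise with tight groups (SE 0.08, adjusted p = 0.00111).

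Among box H/ACA core proteins, Gar1, Dkc1 and Nhp2 rose and Nop10 did not pass. Gar1 read 8.55, 8.40 and 8.37 in wild-type and 9.13, 9.22 and 9.17 in knockout arrays, a 1.66-fold rise (SE 0.08, adjusted p = 0.000435). Dkc1, dyskerin, the pseudouridine synthase, read 9.03, 8.85 and 8.69 in wild-type and 9.62, 9.48 and 9.48 in knockout arrays, a 1.59-fold rise. Nhp2 read 10.72, 10.04 and 10.50 in wild-type and 11.08, 11.19 and 10.96 in knockout arrays. Wild-type 2 was low for Nhp2, the fold was 1.57 with SE 0.17 on the log2 scale and adjusted p = 0.0152, and leaving out knockout 2 ended the call (0.60 on the log2 scale, adjusted p = 0.0557). Nop10, the smallest core protein, stayed within 12.45 to 12.65 in wild-type and 12.54 to 12.58 in knockout arrays (log2 fold change 0.02, SE 0.08, adjusted p = 0.865). Besides snoRNAs, these proteins also bind telomerase RNA.

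The abundant nucleolar proteins rose as well. Npm1, nucleophosmin, a histone and ribosome chaperone, read 11.58, 11.30 and 10.99 in wild-type and 12.38, 12.42 and 12.36 in knockout arrays. It rose 2.13-fold (log2 fold change 1.09, SE 0.14, adjusted p = 0.000794), and its second probe set gave 1.10. Ncl, nucleolin, an RNA-binding protein of the precursor, read 11.39, 11.36 and 11.15 in wild-type and 12.31, 12.22 and 12.20 in knockout arrays. It rose 1.92-fold (SE 0.09, adjusted p = 0.000222). In both genes every knockout array was higher than every wild-type array, and the knockout values were the tighter group.

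Gnl3, nucleostemin, a nucleolar GTPase of proliferating cells, read 9.14, 9.03 and 8.69 in wild-type and 10.20, 10.06 and 9.99 in knockout arrays. It rose 2.18-fold (SE 0.13, adjusted p = 0.000435). Ddx21, a nucleolar RNA helicase, read 7.46, 7.53 and 6.96 in wild-type and 8.34, 8.32 and 8.48 in knockout arrays, a 2.08-fold rise (SE 0.15, adjusted p = 0.00123). For Npm1, Ncl, Gnl3 and Ddx21 the lowest of the 6 values was that of wild-type 3. Nolc1, a chaperone that ferries snoRNPs, rose 1.44-fold (adjusted p = 0.00742), but lost its call when its 3 probe sets were averaged (log2 fold change 0.18, adjusted p = 0.101).

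Of the RNA polymerase I subunits, Polr1a and Polr1b rose. Polr1a, the largest catalytic subunit, read 7.38, 7.38 and 7.60 in wild-type and 8.18, 8.10 and 8.12 in knockout arrays, a 1.60-fold rise (log2 fold change 0.68, SE 0.09, adjusted p = 0.000871). The other 4 probe sets of Polr1a were not called (log2 fold changes -0.07 to 0.23), and with all 5 averaged the gene did not pass (0.19, adjusted p = 0.0669). Polr1b, the second catalytic subunit, read 8.21, 8.11 and 8.24 in wild-type and 8.49, 8.48 and 8.45 in knockout arrays. The difference was small, 1.22-fold, and it missed the threshold when knockout 1 was left out (0.28 on the log2 scale, adjusted p = 0.0631) and when knockout 2 was (0.29, adjusted p = 0.0547).

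Polr1c and Polr1d, which are shared with RNA polymerase III, had log2 fold changes of 0.04 and -0.06, and Polr1e one of 0.19. None of these 3 passed (adjusted p = 0.261 to 0.692). One further probe set of Polr1d was called higher (0.47, adjusted p = 0.00202 over all probe sets).

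Factors of the small subunit act mostly in the large precursor particle called the small subunit processome. They were called in both directions, and the share that rose, 32%, was close to the 32.4% of the brighter genes. Wdr75, a subunit that joins the nascent precursor early, read 7.97, 7.81 and 7.34 in wild-type and 8.66, 8.60 and 8.58 in knockout arrays, a 1.88-fold rise (SE 0.16, adjusted p = 0.00276). Utp14a, an activator of a processome helicase, read 8.21, 8.10 and 8.01 in wild-type and 8.88, 9.00 and 9.04 in knockout arrays, a 1.83-fold rise (SE 0.09, adjusted p = 0.000271). Both genes showed no overlap, and for both the lowest value was that of wild-type 3.

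Utp23, a processome component, read 7.45, 7.30 and 6.99 in wild-type and 7.92, 7.89 and 7.78 in knockout arrays (1.53-fold higher, adjusted p = 0.00594). Utp3 read 9.38, 9.27 and 8.96 in wild-type and 9.71, 9.85 and 9.73 in knockout arrays (1.47-fold higher, adjusted p = 0.00730). Utp4, Rrp7a, Nop14 and Utp25 rose by 0.54, 0.35, 0.32 and 0.32 on the log2 scale. Of these smaller rises, Rrp7a lost its call without knockout 1 (0.33, adjusted p = 0.0562), Nop14 without knockout 3 (0.29, adjusted p = 0.0587), and Utp25 without knockout 1 (0.30, adjusted p = 0.0791) or knockout 3 (0.30, adjusted p = 0.0740). Utp25 also missed with its 3 probe sets averaged (0.01, adjusted p = 0.877).

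The 4 small subunit factors that fell were Nol6, Imp4, Rcl1 and Utp6. Nol6, a processome subunit, read 8.45, 8.37 and 8.71 in wild-type and 7.96, 8.09 and 7.77 in knockout arrays, a 1.48-fold fall (log2 fold change -0.57, SE 0.12, adjusted p = 0.00747). The dimmer probe set of Nol6 had a log2 fold change of -0.19 and was not called (adjusted p = 0.265 over all probe sets). Imp4, part of the trimer that binds the U3 snoRNA, read 9.33, 9.30 and 9.38 in wild-type and 9.00, 9.01 and 9.04 in knockout arrays, a 1.25-fold fall with very tight groups (SE 0.07, adjusted p = 0.01). Its trimer partner Imp3 had a log2 fold change of 0.01 and overlapping groups (adjusted p = 0.923). Averaging the 3 probe sets of Imp4 ended its call (log2 fold change -0.10, adjusted p = 0.331).

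Rcl1, a processing endonuclease candidate, had a log2 fold change of -0.31 (adjusted p = 0.0172), which did not pass without knockout 1 (-0.32, adjusted p = 0.0534) or knockout 3 (-0.28, adjusted p = 0.0670). Utp6 had one of -0.22 (adjusted p = 0.0450), which passed only with all arrays or without wild-type 3. Without another array its adjusted p was 0.0807 to 0.120 and its log2 fold change -0.23 to -0.19. Thus 2 of the 4 lower calls kept an adjusted p under 0.05 with each array left out in turn. The number of members called lower was 2 without knockout 1, 3 without knockout 2 and 3 without knockout 3.

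The other 13 small subunit factors did not pass. Their log2 fold changes ran from -0.19 for Utp14b, an autosomal retrocopy of Utp14a, to 0.27 for Wdr43. Wdr43, Nol11 and Nop9 were higher in all knockout arrays than in any wild-type array without passing (adjusted p = 0.0600, 0.0529 and 0.323), and Utp15 and Utp14b were lower in all of them (adjusted p = 0.519 and 0.116). Without wild-type 1, Nol11 passed (log2 fold change 0.33, adjusted p = 0.0259) and so did Utp11 (0.36, adjusted p = 0.0156). Several of these calls depended on the probe set. With all probe sets averaged, Wdr43 (0.44, adjusted p = 0.00239), Nol11 (0.38, adjusted p = 0.00265) and Utp15 (0.36, adjusted p = 0.0201) were called higher. Single further probe sets were called higher for Wdr43 (0.61), Nol11 (0.33 and 0.99) and Utp15 (0.77), and lower for Nol7 (-0.63, adjusted p = 0.000915 over all probe sets). With the brightest probe set, Utp11 overlapped between groups, as did Imp3, Utp18, Utp20, Rrp9, Rrp36, Nol7 and Nol10.

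Of 13 large subunit factors, 8 rose and none fell. Pes1, Bop1 and Wdr12 form the PeBoW complex that processes the precursor of the large subunit RNAs. Pes1 read 8.64, 8.43 and 8.37 in wild-type and 9.21, 9.27 and 9.18 in knockout arrays, a 1.67-fold rise (SE 0.09, adjusted p = 0.000680). Wdr12 read 7.98, 7.96 and 7.79 in wild-type and 8.40, 8.37 and 8.44 in knockout arrays, a 1.41-fold rise (SE 0.08, adjusted p = 0.00279). Bop1 read 8.29, 8.33 and 8.50 in wild-type and 8.51, 8.51 and 8.44 in knockout arrays, and was not called, with a difference of 0.12 on the log2 scale (SE 0.09, adjusted p = 0.293). Thus 2 of the 3 partners of this complex rose by the brightest probe set, while the groups overlapped for Bop1. The dimmer probe set of Pes1 read -0.23 and was not called (adjusted p = 0.123 over all probe sets). Those of Wdr12 read 1.10 (called higher) and -0.04 (not called).

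Rrp1b, which resembles the large subunit factor Rrp1, read 7.64, 7.52 and 7.37 in wild-type and 8.25, 8.02 and 8.09 in knockout arrays, a 1.53-fold rise (SE 0.10, adjusted p = 0.00267). The dimmer probe sets of Rrp1b had log2 fold changes of 0.06 and 0.11 and were not called (adjusted p = 0.541 and 0.44 over all probe sets). Nop53, a late adaptor for the exosome, read 10.31, 10.27 and 10.36 in wild-type and 10.88, 10.90 and 10.81 in knockout arrays, a 1.46-fold rise (SE 0.08, adjusted p = 0.00106). Rrp15, Rrp1, Ebna1bp2 and Nop2 rose by 0.43, 0.37, 0.36 and 0.25 on the log2 scale. Ebna1bp2 lost its call without knockout 1, 2 or 3 (log2 fold change 0.36 to 0.38, adjusted p = 0.0691 to 0.0764). Nop2, an RNA methyltransferase, lost it without any array except wild-type 3 (log2 fold change 0.22 to 0.26, adjusted p = 0.0535 to 0.0946). Rrp8, Nop16, Nol8 and Nol9 had log2 fold changes of 0.12, 0.09, -0.04 and -0.12 and did not pass.

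Rrp12, an export factor of both subunits, read 6.50, 6.40 and 6.39 in wild-type and 6.75, 6.89 and 6.89 in knockout arrays, a 1.33-fold rise (SE 0.08, adjusted p = 0.0055). Nol12, a nucleolar nuclease, read 8.95, 9.02 and 8.97 in wild-type and 9.23, 9.31 and 9.36 in knockout arrays, a 1.25-fold rise (SE 0.08, adjusted p = 0.0128). The groups of both genes were separate. Nol12 lost its call without knockout 3 (0.29, adjusted p = 0.0532) and with both probe sets averaged (0.20, adjusted p = 0.0531). Nol3, Nol4 and Nol4l carry the prefix without a known part in ribosome assembly. Nol3, an inhibitor of apoptosis, read 7.89, 8.43 and 7.68 in wild-type and 7.03, 7.12 and 7.48 in knockout arrays. It fell 1.73-fold (SE 0.20, adjusted p = 0.0155), but leaving out knockout 1 gave -0.70 on the log2 scale (adjusted p = 0.0573), and leaving out knockout 2 gave -0.74 (adjusted p = 0.0543). Nol4l read 8.03, 8.00 and 8.04 in wild-type and 7.89, 7.73 and 7.84 in knockout arrays, separate groups that did not pass (log2 fold change -0.20, adjusted p = 0.0701), although it passed with centred arrays (-0.28, adjusted p = 0.0254). Nol4 had a log2 fold change of -0.31 and did not pass, except when wild-type 1 was left out (-0.46, adjusted p = 0.0179).

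**Figure D4:**
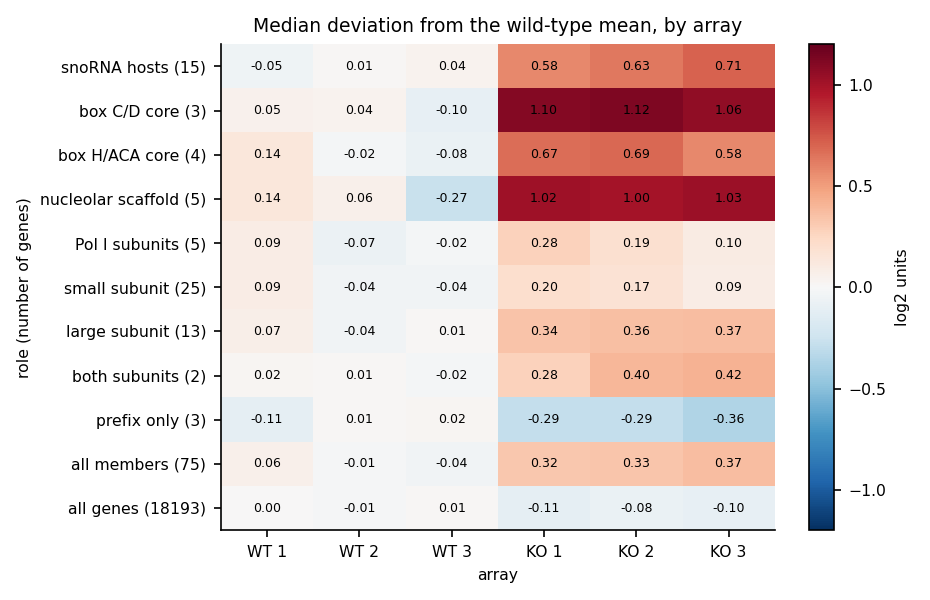
Median over the genes of each role of the log2 deviation from the wild-type mean, for each of the 6 arrays (WT, wild-type; KO, knockout). All 3 knockout arrays read 0.32 to 0.37 over all members and -0.11 to -0.08 over all genes, and wild-type 3 reads -0.27 for the scaffold proteins.

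The shift of the members was alike in the 3 knockout arrays. Their median deviation from the wild-type mean was 0.32, 0.33 and 0.37 in knockout arrays 1 to 3, and 0.06, -0.01 and -0.04 in wild-type arrays 1 to 3. The wild-type arrays were the less uniform group, with a median SD per member of 0.127 against 0.0668 among knockout arrays. The same held over all genes, with median SDs of 0.138 and 0.0857. Wild-type 3 held the lowest wild-type value for 37 members and wild-type 1 the highest for 39.

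Probe sets of the same gene were compared because 48 members had more than 1. Of 31 called members with several probe sets, 17 had another probe set called the same way and 4 had one called the opposite way. Over all 87 further probe sets, 29 were called higher and 8 lower, against 20.6% and 24.8% of all single-gene probe sets. The 4 conflicts were Snhg5, Snhg10, Rrp7a and Ebna1bp2. The dimmer probe sets of Snhg5 had means of 5.27 and 4.03, where the arrays' lower quartiles were 4.62 to 4.77, and which transcripts each covers was not examined.

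Averaging all probe sets of a gene turned the sign of Snhg10 (-0.05), Rrp7a (-0.075) and Ebna1bp2 (-0.09), none of which then passed. It also turned Utp15, from -0.06 to 0.36. Probe sets named for both a host and its snoRNA were not used in the fit. The set shared by Gas5 and Snord47 read 6.83, 6.74 and 7.02 in wild-type and 9.14, 8.89 and 9.01 in knockout arrays, and the set shared by Snhg8 and Snora24 differed by 0.38 on the log2 scale.

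**Figure D5:**
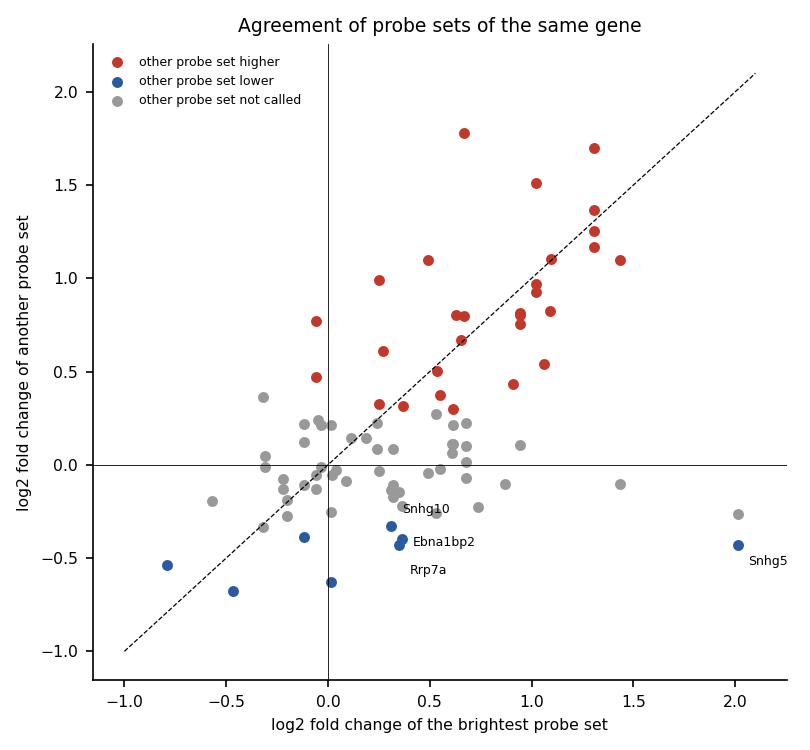
Log2 fold change (knockout minus wild-type) of each of the 87 further probe sets of 48 members (vertical axis) against that of the gene's brightest probe set (horizontal axis), coloured by the call of the further probe set; the dashed line marks equality. The 4 labelled genes were called higher by the brightest probe set and lower by another one.

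Other genes of the pathway, listed by function and outside the rule, were called higher more often than lower in each list of assembly factors. The same held for the 9097 brighter genes, of which 32.4% were higher and 25.7% lower, so that order alone does not set the lists apart. Of 36 small subunit factors outside the rule, 18 rose and none fell, with a median of 0.27. Tsr1, a late small subunit factor, rose 2.07-fold (adjusted p = 0.000369) and the helicase Ddx10 1.69-fold (adjusted p = 0.000448). Of 45 large subunit factors, 19 rose and 2 fell (median 0.27). Tex10, of the rixosome complex, rose 2.39-fold (adjusted p = 0.00142) and Eif6, which keeps the subunits apart, 2.02-fold (adjusted p = 0.000319). Wdr18, a partner of Tex10, fell 1.61-fold (adjusted p = 0.000465). Sbds, which helps to remove Eif6, had a log2 fold change of -0.26 (adjusted p = 0.0277) and was not called without any 1 array other than wild-type 3 (-0.27 to -0.23, adjusted p = 0.0580 to 0.0967).

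Of 12 polymerase I factors outside the rule, 4 rose and none fell (median 0.24). The share that rose, 33.3%, was close to the 32.4% of the brighter genes. Taf1d, a subunit of the selectivity factor and itself a snoRNA host, rose 2.15-fold (adjusted p = 0.000771). Taf1a rose by 0.42 on the log2 scale (adjusted p = 0.0139) but did not pass without knockout 1 (0.36, adjusted p = 0.0567). Ubtf, the promoter-binding factor, had a log2 fold change of -0.17 (adjusted p = 0.218). Of 10 snoRNP assembly factors, 5 rose and 1 fell (median 0.24). Znhit6 rose 1.62-fold (adjusted p = 0.00420) and Shq1, the dyskerin chaperone, 1.45-fold (adjusted p = 0.0125). Rpap3 had a log2 fold change of -0.32 (adjusted p = 0.0465), which did not pass without any 1 array other than wild-type 2 (adjusted p = 0.0926 to 0.138, log2 fold change -0.34 to -0.26).

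Of 16 exosome and trimming genes, 5 rose (31.25%) and 2 fell (12.5%), with a median of 0.20. Here too the share that rose was close to that of the brighter genes, 32.4%. Exosc1 and Exosc8, subunits of the exosome, rose 1.61-fold and 1.60-fold (adjusted p = 0.00184 and 0.00247), and Exosc4 fell 1.34-fold (adjusted p = 0.00356). With all probe sets averaged Exosc1 did not pass (log2 fold change 0.23, adjusted p = 0.174). Exosc7 had a log2 fold change of -0.25 (adjusted p = 0.0344) and did not pass without any 1 array other than wild-type 3 and knockout 2 (-0.25 to -0.23, adjusted p = 0.0588 to 0.118). Of 11 protein-coding snoRNA hosts, 6 rose and none fell (median 0.40). Besides Taf1d they included Rpsa, a small subunit protein, at 1.93-fold and Eef1b2, an elongation factor subunit, at 1.92-fold.

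Regulators of ribosome production were called in both directions, as were genes at large. Of 15 Myc and mTORC1 pathway genes, 6 rose (40%) and 3 fell (20%). The shares were 21.6% and 27.7% over all genes, and 32.4% and 25.7% over the brighter genes. Myc, the transcription factor known to drive these genes, read 6.51, 6.79 and 7.10 in wild-type and 8.75, 8.83 and 8.78 in knockout arrays, a 3.96-fold rise (SE 0.14, adjusted p = 6.1e-05). Mtor, the kinase that promotes ribosome synthesis, read 10.84, 11.17 and 11.07 in wild-type and 10.04, 9.78 and 9.92 in knockout arrays, a 2.17-fold fall (SE 0.11, adjusted p = 0.000257). Ddit4, an inhibitor of mTORC1, rose 4.51-fold. Tsc2 had a log2 fold change of -0.30 (adjusted p = 0.0430) and did not pass without any 1 array other than wild-type 2 (-0.35 to -0.21, adjusted p = 0.0507 to 0.132). Of 7 genes of the p53 arm of nucleolar stress, 5 rose and none fell, led by Cdkn1a at 4.90-fold and Bbc3 at 2.01-fold. Over all genes 21.6% were called higher. Mdm2 and Mdm4, also among the 5, did not pass with all probe sets averaged. Their log2 fold changes were then 0.17 (adjusted p = 0.14) and 0.01 (adjusted p = 0.897).

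Fh1, the check of the label, read 12.41, 12.34 and 12.22 in wild-type and 11.54, 11.60 and 11.61 in knockout arrays (log2 fold change -0.74, adjusted p = 0.000396). Whether its probe set lies in the deleted part is not known.

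Markers of cell types moved with the same contrast. Of 12 proximal tubule markers 10 fell, and the log2 of their summed values was 16.44 to 16.68 in wild-type and 15.35 to 15.45 in knockout arrays. Of 10 immune markers 8 rose, with summed levels of 11.94 to 12.34 and 13.14 to 13.57. Of 8 fibroblast and matrix markers 6 rose, with 11.82 to 12.24 and 13.17 to 14.09. Of 9 markers of dividing cells 8 rose, with 11.56 to 11.76 and 12.31 to 12.46. All 6 loop and distal tubule markers fell, with log2 fold changes from -0.58 for Umod to -3.65 for Pvalb, with summed levels of 15.74 to 15.94 and 14.49 to 14.90. Of 5 collecting duct markers 2 fell, with 12.17 to 12.41 and 11.69 to 12.17. These values have no zero, so absence of a marker cannot be read from them. In dissected tissue, a different mix of cells and a different level of transcript per cell cannot be told apart, and the part of these cell types in the rise of the ribosome biogenesis genes was not tested.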

How the data were processed

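The deposited values of 45101 probe sets on 6 Affymetrix arrays were log2 expression values made by the authors with RMA, per the submitters' processing notes, whose version is not given in the sources used here. Array medians were 6.20 to 6.25. Such values carry no detection call, and the number of arrays limits the precision. Probe sets with exactly 1 gene in the platform annotation (34945) were kept. Those with several genes (932), no gene (9160) or a control name (64) were left out. The brightest probe set represented each gene. Groups were compared with limma 3.58.1 in R 4.3.3 (lmFit and eBayes, two-sided, no covariate), with Benjamini-Hochberg adjustment over 18193 genes and a threshold of 0.05. The script was tested on simulated data. Figures used matplotlib 3.10.9 under Python 3.11.15.

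The members, roles, gene lists and alternatives were chosen with earlier results of these data known, and the promoter searches after the values. In each role, called members with the largest changes (up to 4 in the prevailing direction and 2 in the other) were given by array, or the 2 with the smallest p where fewer than 2 were called. Gas5, Snhg11 and Bop1 were given by array in addition, chosen after their values were seen. From each other list 2 called genes per direction were named, again by size of change. Nested snoRNA genes came from the RefSeq table. Alternatives changed the probe set rule, the filter on dim genes, the prior, centring, normalization, weights, the arrays used, the threshold and the features tested.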

Additional observations from a re-analysis of the deposited data

How the results depend on the processing

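Of the 49 members called, 35 passed with each array left out in turn (33 of them higher), and 32 passed every alternative that tested them, the stricter threshold aside (31 higher, 1 lower). With 1 array left out, 37 to 44 members were higher and 2 to 6 lower, and over all genes 3113 to 3860 were higher and 3160 to 4810 lower, while the median of the members stayed at 0.34 to 0.36. That median was 0.26 with all probe sets of a gene averaged, 0.26 with centred arrays and 0.24 after quantile normalization. Averaging turned the sign of Nat10 (-0.10) and Pelp1 (-0.0015), which were listed outside the rule. Among the members it turned Ebna1bp2 (-0.0855), Rrp7a (-0.075), Snhg10 (-0.0497) and Utp15 (0.36), and left 40 members higher and 5 lower. Quantile normalization gave 35 higher and 6 lower. In the brighter part of the genes, with means no lower than the median gene, 2944 were higher and 2334 lower, and over all single-gene probe sets 7203 and 8683, sets of features of other sizes. At an adjusted p under 0.01, 33 members were higher and 1 lower, and 2640 genes higher and 2371 lower. Where no construction shows it, the cause was not tested.

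No pairing of the samples by replicate number was seen: deviations of same-numbered arrays correlated at -0.0986, -0.126 and -0.125. The deviations are taken from means of 3 arrays, so these correlations constrain one another and cannot exclude a pairing. With the replicate block, 41 members were higher and 4 lower, and 3510 genes higher and 3930 lower. Nop2, Polr1b, Utp25 and Utp6 did not pass in that fit. With 3 arrays a group, differences among the smaller changes are the least certain, and dim probe sets add to this.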

Other observations

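Genes outside the rule that hold a named snoRNA gene in their span were examined after the values had been seen, without a test. Of 46 such genes, 28 were called higher (60.9%) and 3 lower (6.52%). Some of the 46, such as Rpsa, Eef1b2 and Tsr1, were also counted in the lists above. The shares were 21.6% and 27.7% over all genes, and 32.4% and 25.7% over the brighter genes. The 46 genes had a median log2 fold change of 0.43. Among them 11 encode ribosomal proteins, of which 9 rose, led by Rpl12 with a log2 fold change of 2.08. Of the 35 others 19 rose and 3 fell. The long noncoding hosts Zfas1 and Dancr had log2 fold changes of 1.00 and 0.90 (adjusted p = 0.000317 and 0.000178).

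Tsr1 and Srr overlap the same snoRNA gene, Snord91a, in the RefSeq table, strand not considered. Tsr1 rose, with a log2 fold change of 1.05 (adjusted p = 0.000369), and Srr fell, with one of -0.97 (adjusted p = 0.000272). Atp5b and Ap1g1, which hold Snord59a and Snord71, also fell, with log2 fold changes of -0.52 and -0.32.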
